A study of Mus musculus with 8 samples.

Results

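The tight junction genes examined here were 7 claudins (Cldn1, Cldn2, Cldn3, Cldn4, Cldn7, Cldn15 and Cldn23) and 3 of their partners, Ocln, F11r and Tjp1. They were chosen by name and make up 10 of the 25239 genes in the count table. All 10 were measured by bulk RNA-seq in intestinal epithelial cells (IECs) of the mouse proximal small intestine and compared between CD1d-KO mice (4 samples) and wild-type mice (WT, 4 samples). The CD1d-KO mice (CD1d1/2 KO) lack both mouse CD1d genes and with them the natural killer T (NKT) cells that CD1d selects, in every tissue and from birth, and the WT mice were C57BL/6Jax. The labels list no treatment. The study states that its mice were not littermates and that their gut microbiota may therefore differ. It also found shifted NK cells and intraepithelial T cells in CD1d-KO intestine. Such differences cannot be told apart from the loss of CD1d here. The study's methods give an age of 7 to 10 weeks and mice of both sexes, and the samples came from 2 experiments, but the labels do not say which sample came from which. A sample held 150000 cells sorted as positive for EpCAM, an epithelial surface protein, and negative for the leukocyte, endothelial and erythroid markers CD45, CD31 and Ter119, from duodenum preparations enriched for crypts.

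Tight junctions close the gap between neighbouring epithelial cells at its apical end and set which ions and molecules pass between the cells. Claudins are small membrane proteins whose strands form the seal, and some of them instead form channels: claudin-2 and claudin-15 let small cations and water through, and in the small intestine the sodium that leaks back through them is used for nutrient uptake. Occludin and JAM-A (F11r) are further membrane proteins of the junction, and ZO-1 (Tjp1) is the cytoplasmic scaffold that ties them to actin.

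Total counts ranged from 23610266 to 31629435 per sample. Cd1d1, the deleted gene, had normalised counts (counts divided by the size factor of each library) of 7.15, 2.86, 4.89 and 0 in CD1d-KO 1 to 4, against 79.5, 73.4, 91.1 and 61.1 in WT 1 to 4, so it followed the label in every sample. Y-linked genes had 6235 and 7293 counts in CD1d-KO 1 and 2 and at most 1 in any other sample, leaving 2 CD1d-KO and 4 WT samples below a limit of 100 such counts, so sex and genotype were not balanced. Levels in TPM are counts per exon length, scaled to the same total in each sample. The TPM of 12 stomach genes summed to values between 58.9 and 115.9 in CD1d-KO and between 160.7 and 918.7 in WT, without overlap. Most of the CD1d-KO sum was Gkn3, which averaged 77.2 ± 19.8 TPM in CD1d-KO and 81.5 ± 31.9 TPM in WT (SD, n = 4 each). The 8 epithelial markers summed to 12854 to 13378 TPM in CD1d-KO and 12491 to 13963 TPM in WT, and genes of stroma and erythroid cells stood below 1 TPM in sum. The 9 leukocyte genes summed to 14.7 to 19.6 TPM in CD1d-KO and to 51.7, 27.2, 22.6 and 19.5 TPM in WT 1 to 4, so WT 1 stood well above the rest. Itgam alone averaged 13.5 TPM in CD1d-KO and 17.8 TPM in WT. DESeq2 called 4 of the 8 tested leukocyte genes as lower in CD1d-KO (Cd8a, Jchain, Itgam and Coro1a), while edgeR called 0 of 5. The median log2 fold change was -1.49, and 1 of the 8, Lyz2, went the other way (0.52, DESeq2 adjusted p = 0.649). Because whole cell populations were sequenced, fewer cells of a type and less RNA per cell cannot be told apart.

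Sequences upstream of the start site were taken from RefSeq (GRCm38.p6, the mm10 build of the count table), which held a promoter for 9 of the 10 genes, with Cldn23 as the exception. The 250 bases before the start are shown for the 2 channel-forming claudins, which were both abundant, and for Cldn1, which was close to absent. Each runs 5′ to 3′ on the gene's strand, and capitals mark a match on either strand to 1 of 3 motifs. The core that CDX factors bind was searched as TTTATG, the box that places the polymerase as TATAAA, and the core that HNF1 factors bind as GTTAAT.
Cldn2 (chrX:139800558-139800807, plus strand): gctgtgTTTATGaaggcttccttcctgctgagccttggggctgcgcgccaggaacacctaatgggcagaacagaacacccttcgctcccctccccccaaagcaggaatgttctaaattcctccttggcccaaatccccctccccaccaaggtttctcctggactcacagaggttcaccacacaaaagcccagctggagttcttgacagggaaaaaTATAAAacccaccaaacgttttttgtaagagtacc
Cldn15 (chr5:136967619-136967868, plus strand): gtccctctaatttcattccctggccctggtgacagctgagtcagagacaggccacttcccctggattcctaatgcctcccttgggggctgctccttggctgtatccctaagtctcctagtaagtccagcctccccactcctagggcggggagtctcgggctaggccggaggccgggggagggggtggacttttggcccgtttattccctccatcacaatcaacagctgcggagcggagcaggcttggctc
Cldn1 (chr16:26371840-26372089, minus strand): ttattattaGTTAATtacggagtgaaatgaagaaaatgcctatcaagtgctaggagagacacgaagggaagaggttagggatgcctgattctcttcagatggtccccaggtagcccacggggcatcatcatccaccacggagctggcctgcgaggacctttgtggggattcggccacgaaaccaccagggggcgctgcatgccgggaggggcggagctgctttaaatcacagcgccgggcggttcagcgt
Cldn2 held TTTATG near the far end of the window and TATAAA 35 to 30 bases before the start, and Cldn1 held GTTAAT 241 to 236 bases before it. The matches did not overlap each other. None of the 3 motifs occurred in the window of Cldn15 or in those of the other 6 genes with a promoter. Across 32851 mouse promoters of the same length, 10.8% held TTTATG, 12.4% held TATAAA and 6.43% held GTTAAT, so the matches describe these letters and show no binding.

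The level of the 10 genes spanned almost the full range of expression in these cells. Levels between genes were compared in TPM and are means ± SD over all 8 samples. Cldn7, a claudin that binds EpCAM and also lies along the lateral membrane, led with 946.7 ± 32.9 TPM, above 99.0% of tested genes. The channel-forming Cldn15 followed with 616.7 ± 24.1 TPM and the sealing Cldn3 with 585.6 ± 35.4 TPM. Cldn15 exceeded Cldn3 in 6 of 8 samples and their ranges overlapped, so the order of this pair did not stand clear of the spread.

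Cldn2, the other channel former, came next at 240.1 ± 15.9 TPM, and F11r reached 199.4 ± 9.15 TPM. Cldn2 was above F11r within every sample, although the ranges over samples overlapped. Ocln stood at 115.4 ± 5.22 TPM, Tjp1 at 74.2 ± 5.76 TPM and Cldn23, a claudin of differentiating gut epithelium, at 38.2 ± 3.62 TPM. Cldn4, a sealing claudin, reached 18.3 ± 2.30 TPM, in the middle of the tested genes (above 51.3% of them). Cldn1, the main sealing claudin of skin, was at 0.102 ± 0.0537 TPM and above only 2.8% of tested genes. From Ocln down to Cldn1, each gene lay below the next higher one in all 8 samples without overlap of the ranges, as Cldn15 did below Cldn7 and Cldn2 below Cldn3.

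**Figure D1:**
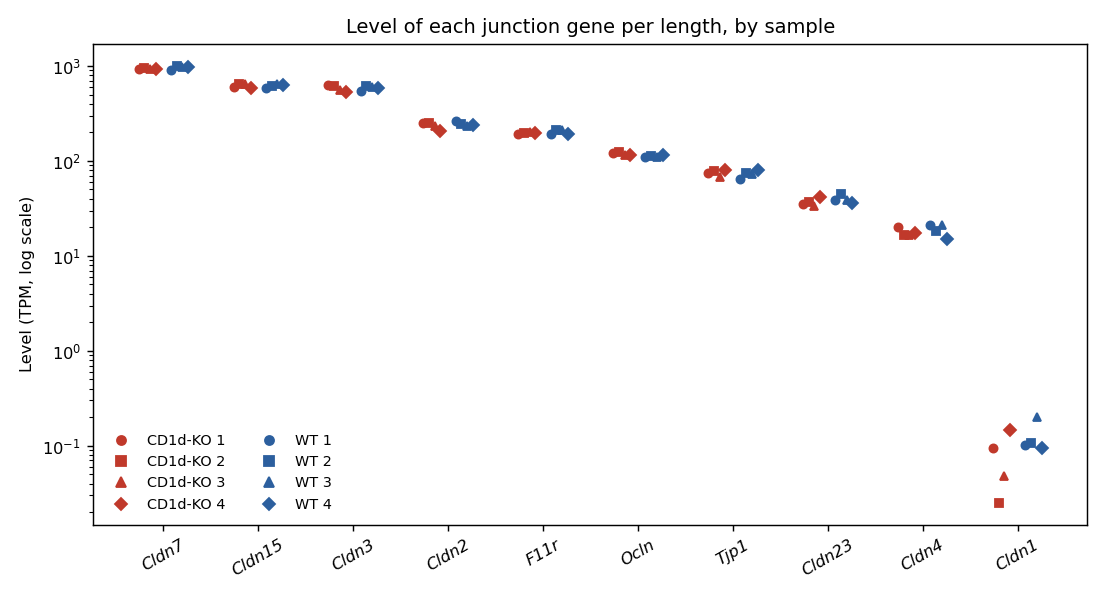
Level in TPM (log axis) of the 10 tight junction genes by sample (8 samples), with the genotypes in separate colours. Cldn7 (946.7 TPM on average), Cldn15 and Cldn3 lie at the top and Cldn1 (0.102 TPM) at the bottom, and the colours intermix for most genes.

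The claudins were also read as a mixture, since the make-up of a strand sets what it lets through. All claudins together summed to 2486 ± 81.3 TPM in CD1d-KO and 2526 ± 84.3 TPM in WT (SD, n = 4 each), ranges that overlapped. Over all 8 samples Cldn7 held 37.8% of this sum, Cldn15 24.6%, Cldn3 23.4% and Cldn2 9.58%, together 95.3%. Of the rest, Cldn12 held 1.94%, Cldn23 1.53%, Cldn4 0.73% and Cldn8 0.30%.

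The shares were close between genotypes. Cldn7 held 37.6% ± 0.938 in CD1d-KO and 38.0% ± 0.613 in WT, and Cldn15 held 24.9% ± 0.951 and 24.3% ± 0.609. The ratio of Cldn2 to Cldn15, the pair of channel formers, was 0.379 ± 0.0291 in CD1d-KO (0.353 to 0.415) and 0.401 ± 0.0350 in WT (0.370 to 0.449). These ranges overlapped, and no test was run on the shares.

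**Figure D2:**
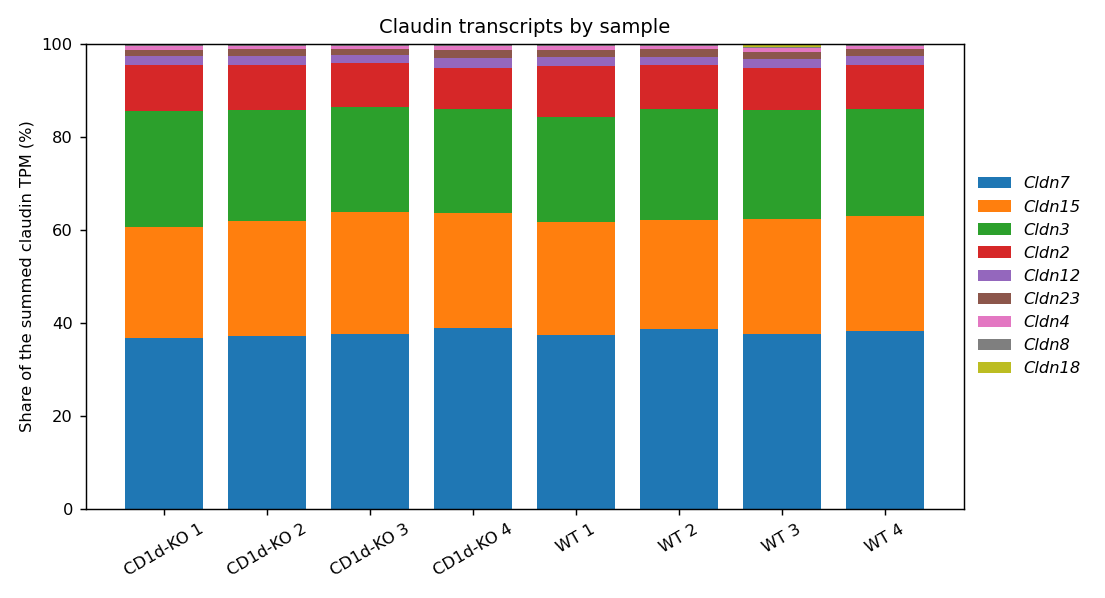
Share (%) of the summed claudin level (TPM) held by each claudin, as a stacked bar for each of the 4 CD1d-KO and 4 WT samples. In every bar Cldn7, Cldn15, Cldn3 and Cldn2 fill nearly the whole height, 95.3% on average.

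The question of the comparison was whether IECs of mice without CD1d express the junction genes differently. None of the 10 genes was called by DESeq2 (adjusted p under 0.05), where 4.03% of the 15446 tested genes were called, 1.65% as higher and 2.38% as lower in CD1d-KO. At an unadjusted p under 0.05 there was 1, Ocln, against 15.3% of tested genes. The quasi-likelihood test of edgeR, which could test 9 of the 10, called 0 where it called 1.66% of all genes. It had 0 of the 9 at an unadjusted p under 0.05, against 2194 of 13744 genes. Log2 fold changes (CD1d-KO against WT) were positive in 3 genes and negative in 7, with a median of -0.04 and a median size of 0.054, where all tested genes had a median of 0.001 and a median size of 0.114. Among the 8811 tested genes at least as abundant as Cldn4, 403 were called and the median size was 0.08.

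With genotype as the only term, these differences were bounded narrowly. For the 9 genes other than Cldn1, the 95% intervals of the fold all lay between 0.785 (lower end for Cldn4) and 1.151 (upper end for Tjp1). A p that misses the threshold does not show that the levels were the same, but folds beyond these ends lay outside the intervals of this fit. With the stomach gene score of each sample as a covariate the same 9 intervals were wider, from 0.637 (Cldn4) to 1.432 (Tjp1), and that of Cldn2 ran from 0.717 to 0.930. The score was at most 0.37 in CD1d-KO and at least 0.67 in WT. Score and genotype therefore cannot be told apart in any fit that uses the score.

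**Figure D3:**
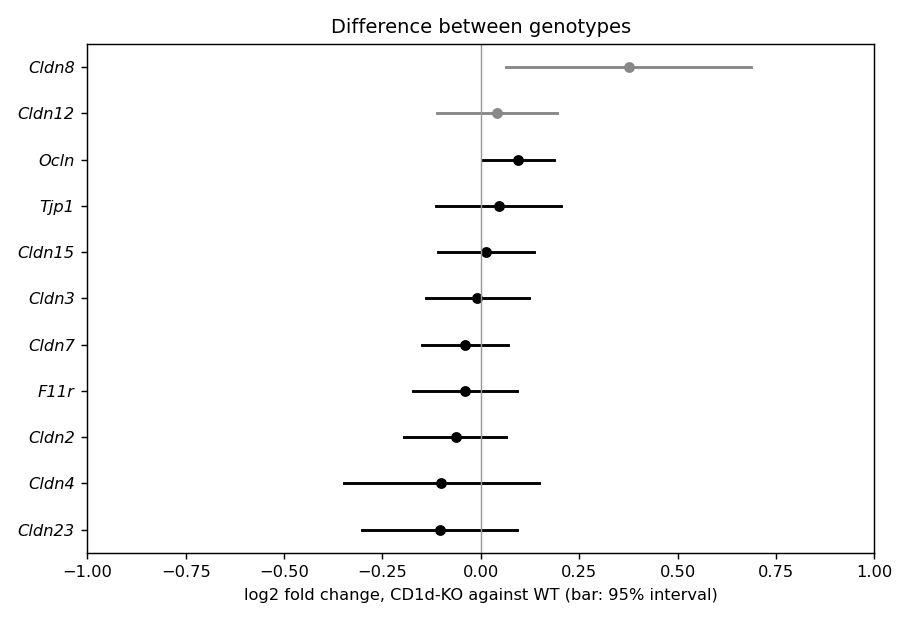
Log2 fold change (CD1d-KO against WT) of 9 of the 10 tight junction genes, and of Cldn8 and Cldn12 in grey, with 95% intervals from DESeq2. The intervals of the 9 genes are short and lie near 0, and that of Ocln runs from a fold of 1.002 to 1.138. Cldn1, counted 1 to 8 times per sample and with a far wider interval, is not drawn.

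Among the channel-forming claudins, Cldn2 (chromosome X, 139800808 to 139811388, plus strand, mm10 as all positions here), whose upstream window is shown above, had normalised counts of 9005, 8936, 8879 and 7786 in CD1d-KO 1 to 4, against 9569, 9113, 8710 and 8789 in WT 1 to 4. CD1d-KO 4 was the lowest of all and WT 1 the highest, while the others of both genotypes interleaved. The log2 fold change was -0.06 ± 0.07 (SE; DESeq2 adjusted p = 0.744) and the interval of the fold ran from 0.874 to 1.046. With the stomach gene score of each sample as a covariate it was -0.29 (DESeq2 adjusted p = 0.168), the smallest adjusted p of any of the 10 genes under any setting.

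Cldn15 (chromosome 5, 136967869 to 136975845, plus strand), the claudin that keeps sodium available in the gut lumen, had normalised counts of 13098, 13818, 14961 and 13310 in CD1d-KO, against 12866, 13640, 14229 and 13940 in WT. CD1d-KO 3 was highest and WT 1 lowest, and the groups overlapped over most of their range. Between genotypes, the log2 fold change was 0.01 ± 0.06 (SE; DESeq2 adjusted p = 0.966), with a fold between 0.927 and 1.099.

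The sealing claudins behaved alike in that the genotypes overlapped in each. Cldn3 (chromosome 5, 134986214 to 134987476, plus strand) had normalised counts of 9373, 9012, 8881 and 8190 in CD1d-KO, against 8214, 9411, 9181 and 8867 in WT. The lowest values of both groups were almost equal, and so were the highest. For Cldn3 the log2 fold change was -0.01 ± 0.07 (SE; DESeq2 adjusted p = 0.980). Cldn3 shares 44 exon bases with the gene Wbscr25, and read pairs there that overlapped both genes were not counted. None of the other 9 genes shares exon bases with another gene.

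Cldn4 (chromosome 5, 134945124 to 134946934, minus strand) had normalised counts of 426.5, 354.3, 378.3 and 381.2 in CD1d-KO, against 460.4, 400.3, 461.5 and 326.4 in WT. WT held both the 2 highest values and the lowest. Its log2 fold change was -0.10 ± 0.13 (SE; DESeq2 adjusted p = 0.814), and the coefficient of variation was 7.82% in CD1d-KO and 15.5% in WT, against a counting error of 4.98%. Cldn1 (chromosome 16, 26356646 to 26371839, minus strand) was counted 4, 1, 2 and 6 times in CD1d-KO, against 4, 4, 8 and 3 times in WT. With counts this low, the fitted value was -0.68 ± 0.83 on the log2 scale (SE; DESeq2 adjusted p = 0.805) and the fold interval ran from 0.202 to 1.928. A difference in Cldn1 smaller than this interval was not detectable at this depth.

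Cldn7 (chromosome 11, 69964779 to 69967886, plus strand) had normalised counts of 15840, 16179, 16887 and 16375 in CD1d-KO, against 15565, 17673, 16998 and 16855 in WT. The CD1d-KO values all lay inside the WT range. Its log2 fold change was -0.04 ± 0.06 (SE; DESeq2 adjusted p = 0.840), with a fold between 0.902 and 1.05. Epcam, whose protein binds claudin-7, had 56046 ± 2067 normalised counts in CD1d-KO and 52842 ± 547 in WT (SD, n = 4 each), so that its log2 fold change was 0.09 ± 0.05 (SE; DESeq2 adjusted p = 0.367). The Epcam groups did not overlap, as for 9.61% of tested genes. Its protein was used to sort the cells of both genotypes, and any part of the sorting in its level was not tested.

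Cldn23 (chromosome 8, 35824709 to 35826559, minus strand) had normalised counts of 762.6, 801.0, 783.9 and 933.2 in CD1d-KO, against 858.1, 1009, 863.8 and 794.7 in WT. CD1d-KO 4 was above all WT samples but WT 2, so the groups overlapped. On the log2 scale the fold change was -0.10 ± 0.10 (SE; DESeq2 adjusted p = 0.715), the most negative after Cldn1.

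Of the partners, Ocln (chromosome 13, 100496505 to 100552718, minus strand) was the one gene whose groups did not overlap. Its normalised counts were 6021, 6125, 6137 and 5929 in CD1d-KO, against 5515, 5802, 5544 and 5813 in WT. All 4 CD1d-KO samples were above all 4 WT samples, as happens without overlap, in either direction, for 9.61% of tested genes. The log2 fold change was 0.10 ± 0.05 (SE; unadjusted p = 0.0428, DESeq2 adjusted p = 0.303), a fold between 1.002 and 1.138, and it did not pass the test. Ocln was also the steadiest of the 10, with a coefficient of variation of 1.61% in CD1d-KO and 2.84% in WT against a counting error of 1.30%.

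F11r (chromosome 1, 171437561 to 171464593, plus strand), which encodes JAM-A, had normalised counts of 5641, 5703, 6233 and 5913 in CD1d-KO, against 5630, 6431, 6373 and 5714 in WT. The CD1d-KO samples lay inside the WT range. The log2 fold change was -0.04 ± 0.07 (SE; DESeq2 adjusted p = 0.874). Tjp1 (chromosome 7, 65296165 to 65371244, minus strand), which encodes ZO-1, had 6281, 6573, 6035 and 6902 in CD1d-KO, against 5434, 6461, 6279 and 6834 in WT. WT 1 was well below the other samples, which interleaved. Its log2 fold change was 0.04 ± 0.08 (SE; DESeq2 adjusted p = 0.882), and 0.25 with the stomach gene score as a covariate (DESeq2 adjusted p = 0.590).

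**Figure D4:**
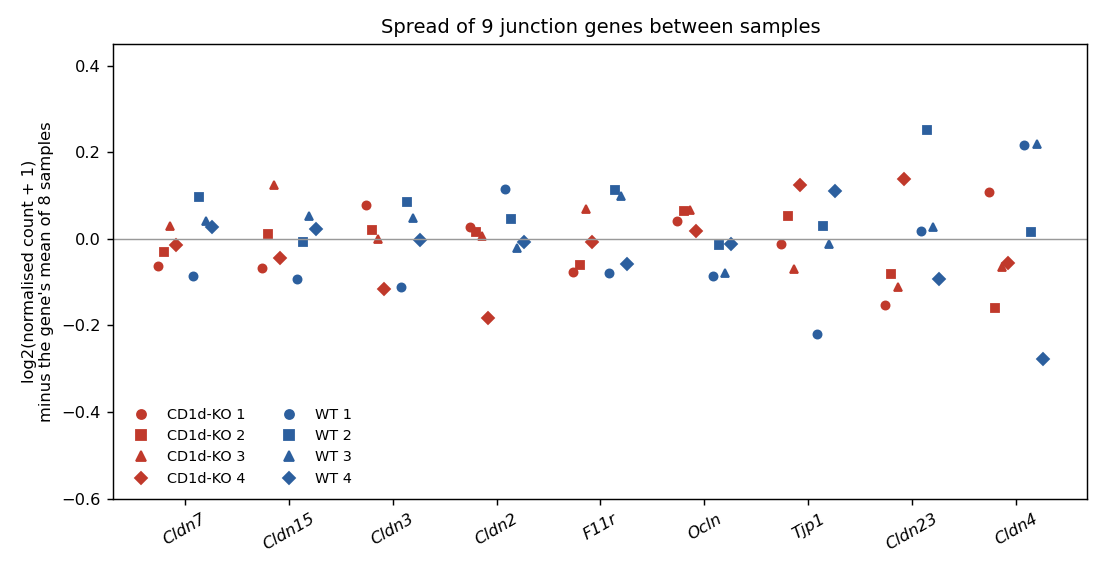
Log2 normalised count of each tight junction gene except Cldn1 in each sample, centred on the mean of that gene over all 8 samples. CD1d-KO and WT points intermix for every gene shown but Ocln, where the 4 CD1d-KO points lie above the 4 WT points.

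Within the samples below 100 Y-linked counts, 2 CD1d-KO and 4 WT, 0 of the 10 genes were called by DESeq2, against 2.57% of tested genes. Ocln had a log2 fold change of 0.09 (DESeq2 adjusted p = 0.747) and Cldn2 of -0.12 (DESeq2 adjusted p = 0.707).

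Beyond the 10 genes, the table listed 25 other claudins. Of these 14 had a count in some sample, 8 could be tested and 1, Cldn18, was called. Fold changes were positive in 4 and negative in 4, with a median of -0.04 on the log2 scale, and edgeR called 1 of the 3 that it tested. Cldn12 was the most abundant, with 2409 ± 224 normalised counts in CD1d-KO and 2343 ± 74.9 in WT (SD, n = 4 each) and a log2 difference of 0.04 ± 0.08 (SE; DESeq2 adjusted p = 0.892). Cldn8, a sealing claudin of distal gut and kidney tubules, stood at 251.2, 232.4, 198.4 and 276.5 normalised counts in CD1d-KO, against 156.1, 181.3, 230.7 and 169.9 in WT. Most CD1d-KO samples were higher, but WT 3 lay above CD1d-KO 3, and its log2 fold change was 0.38 ± 0.16 (SE; unadjusted p = 0.0180, DESeq2 adjusted p = 0.190) and did not pass the test.

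Cldn18 (chromosome 9, 99690797 to 99717267), a claudin of stomach and lung, was counted 1, 0, 0 and 18 times in CD1d-KO, against 38, 37, 495 and 158 times in WT. Every WT sample was above every CD1d-KO sample, and WT 3 alone held most of the WT counts. The log2 fold change was -5.37 ± 1.69 (SE; DESeq2 adjusted p = 0.0420, edgeR adjusted p = 0.0367). The stomach gene score, computed without Cldn18, moved with it, at -2.54, -2.40, -2.49 and 0.37 in CD1d-KO, against 0.67, 1.09, 2.99 and 2.32 in WT. With the score as a covariate Cldn18 was at -0.34 (DESeq2 adjusted p = 0.940). The score did not overlap between genotypes, so this fit cannot tell score and genotype apart. The call was also lost without WT 3 (-4.31, DESeq2 adjusted p = 0.259) and among the samples below 100 Y-linked counts (-4.44, DESeq2 adjusted p = 0.241). It was lost with values close to the original without CD1d-KO 1 (-5.02, DESeq2 adjusted p = 0.151), CD1d-KO 2 (-4.95, 0.0811), WT 1 (-5.71, 0.0916) or WT 2 (-5.71, 0.106), and without independent filtering (-5.37, 0.0519). It held without CD1d-KO 3 (-4.95, DESeq2 adjusted p = 0.0473) and without CD1d-KO 4, where the value moved to -9.12 (DESeq2 adjusted p = 1.34e-05). Leaving out WT 4 gave no adjusted p. Apart from Cldn18, DESeq2 called 4 of 9 tested stomach genes, 3 of them lower in CD1d-KO and 1, Atp4a, higher (0.927, DESeq2 adjusted p = 0.0477). Gkn3 was at -0.085 (DESeq2 adjusted p = 0.957). The sum of Brunner's gland genes rested on Muc6 and Tff2, with Bpifb1 at 0 in every sample. It lay between 2.04 and 24.9 TPM in CD1d-KO and between 47.4 and 389.6 TPM in WT. Like the stomach score, this sum was highest in WT 3 and next in WT 4, so the 2 cannot be told apart here.

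**Figure D5:**
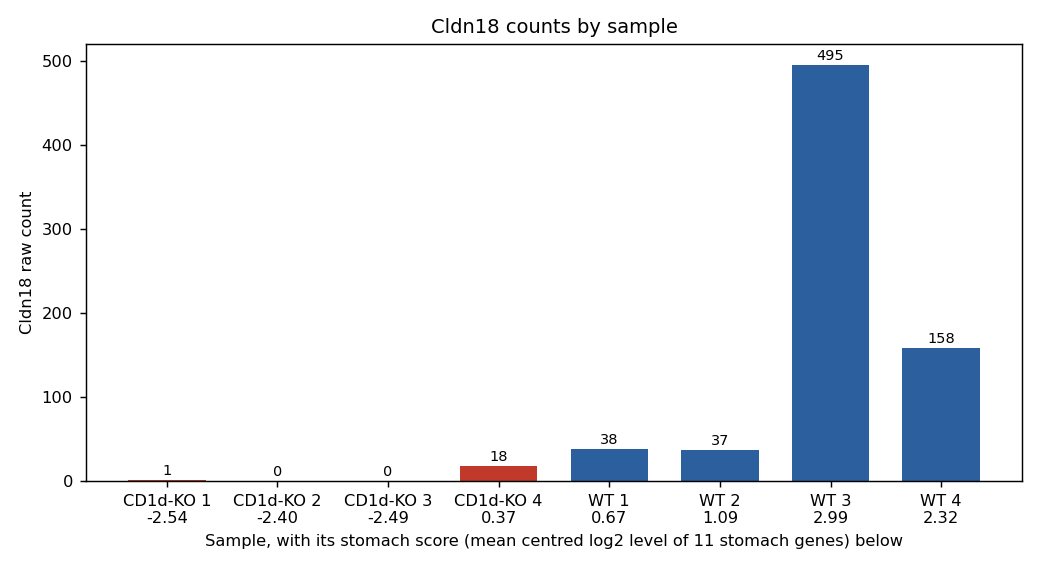
Raw count of Cldn18 in each sample, with the stomach gene score of that sample, which was computed without Cldn18, printed below. The samples with the highest score, WT 3 and WT 4, hold the most Cldn18, and CD1d-KO 1 to 3, with scores near -2.5, hold 0 or 1 raw counts.

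The other scaffolds and partners of the tight junction were taken as a list of 37 symbols, of which 34 were tested. None was called by DESeq2 or edgeR, and the median log2 fold change was -0.01. At an unadjusted p under 0.05 there were 5 by either tool, against 15.3% of all tested genes by DESeq2 and 2194 of 13744 by edgeR. The extremes were the low-count Jam2 (-0.64 ± 0.69, SE) and Ildr2 (0.20 ± 0.73, SE). Cgn, which encodes the ZO-binding protein cingulin, had normalised counts of 6814, 6852, 6293 and 6926 in CD1d-KO, against 7442, 7677, 7637 and 7162 in WT. Its groups did not overlap, as in 2 of the 34 tested genes of this list, against 9.61% of all tested genes. The log2 fold change of Cgn was -0.15 ± 0.06 (SE; DESeq2 adjusted p = 0.0877). Cgn lies 7.76 Mb from Cd1d1 on chromosome 3, and Arhgef2, whose protein cingulin binds, lies 1.62 Mb from it, with its log2 fold change at -0.22 ± 0.08 (SE; DESeq2 adjusted p = 0.0991). The other tested scaffolds on chromosome 3, Magi3 (17.01 Mb away) and Prkci (55.94 Mb away), had log2 fold changes of 0.008 and 0.12 (DESeq2 adjusted p = 0.985 and 0.448). Sequence linked to the deleted gene and the deletion itself cannot be told apart in this design. Tjp3 (ZO-3) was at -0.17 ± 0.07 (SE, DESeq2 adjusted p = 0.172). Among the alternatives, Tjp3 passed only in the samples below 100 Y-linked counts (-0.27, DESeq2 adjusted p = 0.0278).

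Junctions below the tight junction were covered by 20 tested genes of adherens junctions and desmosomes. None was called by DESeq2 or edgeR. At an unadjusted p under 0.05 there were 5 by DESeq2, against 15.3% of all tested genes. By edgeR there were 4, against 2194 of 13744 genes. The median log2 fold change was 0.04, with Nectin4 lowest at -0.19 ± 0.25 and Nectin3 highest at 0.18 ± 0.08 (SE). Pkp3, a plakophilin of desmosomes, had 2707 ± 100 normalised counts in CD1d-KO and 3086 ± 168 in WT (SD, n = 4 each). Its groups did not overlap, as in 3 of the 20 genes, against 9.61% of all tested genes. The log2 fold change of Pkp3, -0.19 ± 0.06 (SE; DESeq2 adjusted p = 0.0612), missed the threshold. Among the alternatives, Pkp3 passed only without WT 1 (-0.22, DESeq2 adjusted p = 0.0385). Among 15 tested genes of claudin stability and junction tension, which include EpCAM, its proteases and the myosin kinases, 0 were called by DESeq2 or edgeR and 1 was at an unadjusted p under 0.05 by each, with a median of 0.004. The protease St14, which cleaves EpCAM, was lowest (-0.12 ± 0.05, SE; DESeq2 adjusted p = 0.197) and the kinase Wnk4 highest (0.17 ± 0.09, SE; DESeq2 adjusted p = 0.328). Among the alternatives, Wnk4 passed only without CD1d-KO 3 (0.24, DESeq2 adjusted p = 0.0391).

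Cell type markers set the frame for these levels. Crypt markers summed to 5241 to 7785 TPM in CD1d-KO and 4828 to 6819 TPM in WT. Villus markers summed to 4744 to 8655 TPM in CD1d-KO and 4066 to 5977 TPM in WT. The balance of crypt and villus transcripts thus varied between samples of one genotype. Log2 fold changes were positive in 7 of 8 crypt markers (median 0.114) and in 9 of 12 villus markers (median 0.212). DESeq2 called 0 crypt markers and 1 villus marker, Slc28a2 (-0.84, DESeq2 adjusted p = 8.04e-08), against 4.03% of all tested genes. M cell genes summed to 103.3 to 116.4 TPM in CD1d-KO and 119.9 to 126.2 TPM in WT, without overlap. Of the 6 tested, DESeq2 called 1, Ccl20, with a log2 fold change of -1.50 (DESeq2 adjusted p = 2.53e-06). Tnfrsf11a (0.016) and Marcksl1 (-0.007), which had the highest TPM of the list, were nearly level, and Gp2 was at 0 in every sample. The part of these shifts in the tight junction values was not tested.

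Genes with the most similar pattern over the 8 samples were sought for the 3 tight junction genes with the smallest unadjusted p, by the root-mean-square difference of centred log2 normalised counts among 11711 genes. For Ocln these were Prpf18 (0.0159), Rab11fip1 (0.0213) and Setd3 (0.0227), against a median difference of 0.1305 over all genes searched. For Cldn23 they were Ccdc28b (0.0322), Dqx1 (0.0409) and Tmem25 (0.0504), against a median of 0.1819. For Cldn2 they were BC017158 (0.0294), Pdcd7 (0.0325) and Dele1 (0.0361), against a median of 0.1463. The list gives likeness over 8 samples and nothing on function.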

How the data were processed

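RNA of 8 IEC samples was sequenced from poly(A) libraries. The deposited values are whole-number fragment counts, not normalised, which the authors made for each gene. Per the file headers, featureCounts 1.6.4 counted primary alignments of read pairs over exons without strand, so genes with near-identical copies have uncertain counts. The header names an mm10 annotation, whereas alignment was to GRCm39 by HISAT2 according to the methods, and positions here are those of the table. All sample columns were used (0 left out).

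Groups and replicate numbers came from the labels. Genotypes were compared in DESeq2 1.42.0 (R 4.3.3), the tool of the study's methods, fitting genotype alone, with size factors by median of ratios, Cook's rule and independent filtering (mean normalised count of 2.408). Of 19088 genes with a count, 3638 were left without an adjusted p by filtering and 4 by Cook's rule, and Benjamini-Hochberg adjustment ran over 15446. Intervals are 95% Wald intervals. TPM was computed from counts and the deposited exon length, which sums the exons of all transcripts. The stomach score is the mean centred log2(normalised count + 1) of 11 genes. Alternatives were edgeR 4.0.16, TMM factors, size factors without the 50 most abundant genes, a filter of 10 counts in 4 samples, no independent filtering, a replicate block, the samples below 100 Y-linked counts, the stomach score as a covariate, and leaving out each sample. The scripts were tested on simulated data. Counting errors cover counting only, as reads were counted without molecular identifiers and may copy one molecule.

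The 10 genes and the lists were chosen with earlier results of these data known. Named genes were all 10, called genes and both extremes of each junction list, other claudins with a mean of at least 50 normalised counts, and the 3 genes most like each of the 3 with the smallest p. Cgn, Arhgef2, Tjp3, Pkp3, Epcam, Magi3, Prkci, the leukocyte genes, Ildr1 and Amotl1 were named after their values were seen. So were Atp4a, Gkn3, Ccl20, Slc28a2, Muc6, Tff2, Tnfrsf11a, Marcksl1 and Gp2.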

Additional observations from a re-analysis of the deposited data

Results flagged for a closer look

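In 3 of 26 groups of 4 samples examined, the gap of the most extreme sample to its neighbour, divided by the range of the group, exceeded the 95% critical value of Dixon's test, which chance passes in about 5% of groups. Cldn2 was lowest in CD1d-KO 4 with a gap of 0.896 of the CD1d-KO range, although its 7786 normalised counts lay within 1.23 times of every other sample. Cldn1 was highest in WT 3 with a gap of 0.872, on a raw count of 8. Cldn18 was highest in CD1d-KO 4 with a gap of 0.948, on a raw count of 18, and this sample also had the highest stomach score of the CD1d-KO samples (0.37).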

How the results depend on the processing

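For the 10 tight junction genes, 153 fold changes with an adjusted p were recomputed over 16 alternatives, 8 of which left out a sample, and 0 were called, with 0.168 as the smallest adjusted p. Direction turned in 10 of them. With the stomach score as a covariate Cldn1 was at 0.749, Cldn23 at 0.019 and F11r at 0.007, and F11r was at 0.010 among the samples below 100 Y-linked counts. Leaving out single samples moved Cldn3 from -0.047 to 0.027, Cldn15 from -0.028 to 0.039, Tjp1 from -0.018 to 0.089, Cldn12 from -0.002 to 0.094, Nectin4 from -0.316 to 0.021, Magi3 from -0.04 to 0.07 and Ildr2 from -0.789 to 0.871. Ildr2 was also at -0.825 among the samples below 100 Y-linked counts, -0.882 with the stomach score and -0.039 with the replicate block. Magi3 was at -0.076 among the samples below 100 Y-linked counts. Cldn1 had an adjusted p in 9 alternatives.

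Over all genes, 228 were called by edgeR, 372 among the samples below 100 Y-linked counts, 116 with the stomach score and 323 to 646 when single samples were left out (323 without CD1d-KO 2). Cldn18 was not called without independent filtering, among the samples below 100 Y-linked counts or with the stomach score, which left 0 other claudins called in each, and leaving out single samples left 0 to 1. Other scaffolds had 1 call (Tjp3) among the samples below 100 Y-linked counts and 0 to 2 when single samples were left out, namely Ildr1 (-0.433) and Amotl1 (-0.749) without CD1d-KO 3 and Arhgef2 (-0.271) without WT 4. That range was 0 to 1 for adherens junctions (Pkp3) and for junction tension (Wnk4). As shares of raw counts without length, Cldn7 held 31.83%, Cldn15 26.41%, Cldn3 17.1% and Cldn2 17.03%. The cause of these changes was not tested.

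With the replicate number as a block, 569 genes and 0 of the 10 were called (Ocln 0.095, DESeq2 adjusted p = 0.581) and Cldn18 was at -6.61 (DESeq2 adjusted p = 0.00115). The deviations of same-numbered samples correlated at 0.285, 0.025, 0.221 and 0.004 over 11721 genes, and not every sample correlated best with its own number, so the numbers were not taken as pairs.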
